A study of Mus musculus with 2 samples.

Results

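The 10 genes described here encode proteins of elastic fibres and of the microfibrils on which these fibres are built. They are elastin (Eln), the fibrillins Fbn1 and Fbn2, the microfibril-associated proteins Mfap2, Mfap4, and Mfap5, the fibulins Fbln1, Fbln2, and Fbln5, and tenascin-X (Tnxb). They were taken by symbol from the 32288 features of the gene list. Each symbol named 1 feature, and all 10 genes passed the filter on low counts in every main comparison below, though not under every alternative setting.

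Elastic fibres are made of a core of crosslinked elastin laid down on a scaffold of fibrillin microfibrils. Fibulins and microfibril-associated proteins bind the fibrillins and bring elastin to them, and lysyl oxidases crosslink the elastin, which gives tissues their recoil. Microfibrils also occur without elastin and hold latent TGF-β in the matrix through its binding proteins. The periosteum has an outer fibrous layer of fibroblasts, collagen, and elastic fibres and an inner layer of cells that form bone.

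The study profiled periosteal cells peeled from femurs and tibias of mice labelled WT C57BL6 and 4 weeks old by droplet scRNA-Seq of the 3′ ends of transcripts. Viable cells were sorted by FACS on CD45, CD31, and Ter-119, markers of blood, endothelial, and erythroid cells, to obtain cells that lack them. The 2 libraries, numbered by replicate as 1 and 2, share 1 condition. The sources used here do not say whether they came from separate mice, so P values measure only the spread between these libraries. Reporter transcripts went against the WT label. EGFP had 0 UMIs in library 1 and 6837 UMIs in 170 kept cells of library 2, and tdTomato had 1482 UMIs in 1027 cells of library 1 and 4627 in 846 cells of library 2. Among periosteal fibroblast-like cells, described below, EGFP was found in 0 and 13 cells and tdTomato in 3 and 117. The libraries thus differed in reporter transcripts, whose part in the results was not tested, and levels are given for each library.

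The libraries held 9932 and 3659 barcodes with 100808649 and 33306452 UMIs (unique molecular identifiers, which count each captured transcript once). Of these, 6276 and 2893 cells with at least 500 genes, at least 500 UMIs, and at most 10% mitochondrial UMIs were kept, with medians of 8164 and 6279 UMIs, and 7 kept barcodes occurred in both libraries. Despite the sort, 7599 of the 9169 kept cells lay in clusters of hematopoietic cells, and 1570 cells (446 and 1124) were stromal. The stromal cells formed 15 clusters, which were named from marker lists that held none of the 10 genes. The members and Pi16 were also left out of the genes used for clustering, although genes that vary with them were not.

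Periosteal fibroblast-like cells numbered 19 in library 1 and 295 in library 2, so the levels of library 1 rested on few cells. All 9 markers of their list, which includes Pdgfra, Dpt, and Clec3b, had UMIs in both libraries, as they had in tenocyte-like cells. Levels in CPM are the UMIs of a gene or list divided by all UMIs of the class, on the usual CPM scale. The summed level of the 9 markers was 23839 and 24034 CPM in fibroblast-like cells and 8326 and 9560 CPM in tenocyte-like cells. The other classes held in library 1 and library 2, respectively, 83 and 40 Lepr+ stromal-like cells, 85 and 167 osteoblast-like cells, 27 and 123 chondrocyte-like cells, 71 and 63 skeletal muscle-like cells, 2 and 92 tenocyte-like cells, and 4 and 19 smooth muscle-like cells. The Lepr+ stromal-like cells of the 2 libraries differed in their markers. The summed level of the 8 markers, led by Adipoq, Cxcl12, and Hp, was 23709 CPM in library 1 and 3658 CPM in library 2. In library 2 these cells also held 14043 CPM of the 8 osteoblast markers, against 1954 CPM in library 1, and 4024 CPM of the 9 fibroblast markers, against 504 CPM. The 7 osteogenic progenitor markers were at 8280 CPM in library 2 and 2969 CPM in library 1. In library 2 the osteoblast, progenitor, and fibroblast lists thus each exceeded the list that gave the class its name. The osteoblast list, which includes Col1a1, was also at 6055 and 9867 CPM in fibroblast-like cells of libraries 1 and 2. In tenocyte-like cells it was at 15030 and 32164 CPM, above their own list at 11678 and 15918 CPM. In the Lepr+ stromal-like cells, the 8 erythroid markers were at 16932 CPM in library 1 and 330 CPM in library 2. The part of these markers in the results was not tested, and the comparisons with this class are also given within each library.

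Periosteal fibroblast-like cells devoted the largest share of their UMIs to the 10 genes together in both libraries. In library 1 the share was 0.754% (95% exact Poisson interval 0.720 to 0.789), and in library 2 it was 0.698% (0.688 to 0.708). These intervals, and all others on counts below, cover counting error only. Tenocyte-like cells followed with 0.427% (0.353 to 0.513) from 2 cells and 0.255% (0.244 to 0.266). Lepr+ stromal-like cells stood at 0.180% and 0.106%, and smooth muscle-like cells at 0.101% and 0.199%, and these classes changed places between the libraries. Osteoblast-like cells (0.0134% and 0.0212%) and chondrocyte-like cells (0.00154% and 0.00254%) were lower in both libraries. Skeletal muscle-like cells held 1 member UMI in each library. The background in hematopoietic cells, which are not known to build elastic fibres, was 0.00012% and 0.000693%.

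**Figure D1:**
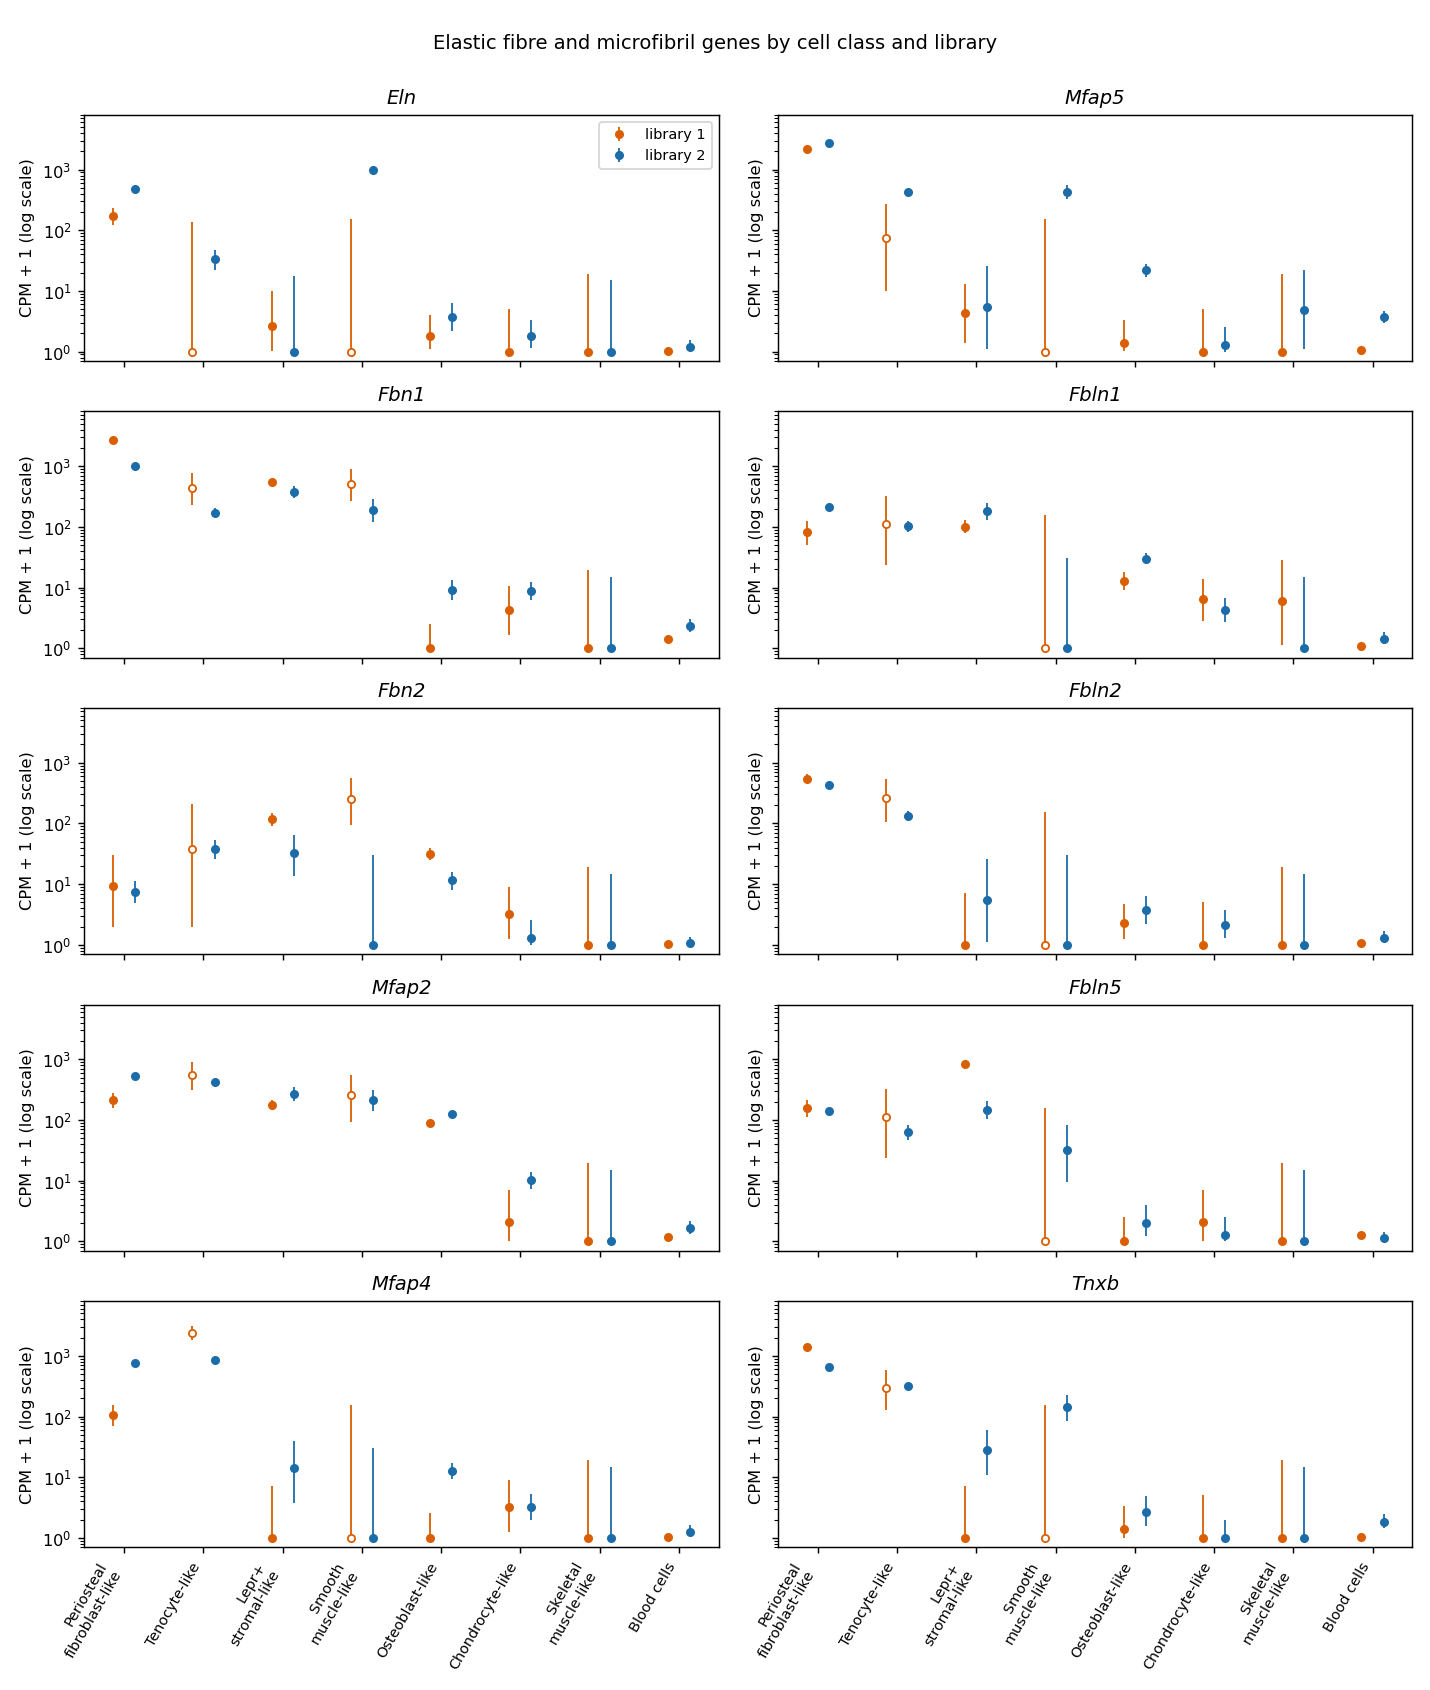
Levels of the 10 genes (CPM + 1, log axis) in 7 stromal classes and in all blood cells, in library 1 (orange) and library 2 (blue). Bars are 95% exact Poisson intervals, and open points mark classes with fewer than 10 cells in that library. Mfap5, Fbln2, and Tnxb stand apart in fibroblast-like, tenocyte-like, and in part smooth muscle-like cells, whereas Mfap2, Fbn1, and Fbln1 extend to Lepr+ stromal-like cells.

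Eln (chr5:134702593-134747323, minus strand, GRCm38), which encodes the elastin of the fibre core, was measured at 171 CPM (95% exact Poisson interval 123 to 231) in the fibroblast-like cells of library 1 and at 469.8 CPM (445 to 496) in those of library 2. The smooth muscle-like cells of library 2 held more, at 979 CPM (815 to 1168), whereas the 4 cells of library 1 had no Eln UMI. Eln was thus abundant in 2 stromal classes of library 2, the fibroblast-like and the smooth muscle-like cells, and tenocyte-like cells came next at 32.2 CPM. The Lepr+ stromal-like cells held 1 and 0 Eln UMIs, the osteoblast-like cells 2 and 8, and the chondrocyte-like cells 0 and 3. An Eln UMI was found in 63.2% of 19 and 52.2% of 295 fibroblast-like cells (median 12361 and 9198 UMIs) and in 0.0172% and 0.17% of blood cells (median 8125 and 4610 UMIs).

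Fbn1 (chr2:125300594-125507993, minus strand) encodes the main fibrillin of adult microfibrils. Fibroblast-like cells held 2653 CPM (2453 to 2865) and 1009 CPM (972 to 1047), and every fibroblast-like cell of library 1 had an Fbn1 UMI. Lepr+ stromal-like cells held 552 and 379 CPM, and smooth muscle-like and tenocyte-like cells 189.5 and 169.7 CPM in library 2, where the intervals of the last 2 classes overlapped (121 to 282 and 143 to 201). Osteoblast-like and chondrocyte-like cells stayed under 10 CPM in both libraries. Among the named classes, Fbn1 was thus spread over fibroblast-like, Lepr+ stromal-like, smooth muscle-like, and tenocyte-like cells and low in osteoblast-like and chondrocyte-like cells.

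Fbn2 (chr18:58008623-58210487, minus strand), a fibrillin best known from development, was at a lower level in fibroblast-like than in Lepr+ stromal-like and osteoblast-like cells. Fibroblast-like cells held 2 and 18 Fbn2 UMIs, or 8.15 CPM (0.987 to 29.4) and 6.48 CPM (3.84 to 10.2). Lepr+ stromal-like cells held 117 CPM (91.3 to 147) and 31.2 CPM (12.5 to 64.3), and osteoblast-like cells 30.7 CPM (24.1 to 38.6) and 10.5 CPM (7.13 to 14.9). The intervals of fibroblast-like and osteoblast-like cells overlapped in both libraries. The ratio of fibroblast-like to osteoblast-like cells was 0.265 (0.0315 to 0.992) in library 1, an interval just below 1. In library 2 this ratio was 0.618 (0.325 to 1.14). Tenocyte-like cells of library 2 held 37.2 CPM (25.1 to 53.1). The level of Fbn2 was higher in library 1 than in library 2 in both Lepr+ stromal-like and osteoblast-like cells, and 117 CPM was its highest level in a class with at least 10 cells.

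Mfap2 (chr4:141010418-141015984, plus strand), which encodes a small glycoprotein bound to fibrillin, reached 5 classes. Its level was 212 and 526 CPM in fibroblast-like cells, 175 and 272 CPM in Lepr+ stromal-like cells, and 88.5 and 123 CPM in osteoblast-like cells. Tenocyte-like and smooth muscle-like cells of library 2 held 419 and 213 CPM. A UMI of Mfap2 was found in 80% of 85 and 65.3% of 167 osteoblast-like cells, against 0.24% and 0.509% of blood cells. Chondrocyte-like cells held 1.1 and 9.27 CPM.

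Mfap4 (chr11:61485431-61488900, plus strand), a fibrinogen-domain protein that binds elastin and fibrillin, was measured at 106 CPM (69.2 to 155) and 754 CPM (722 to 787) in fibroblast-like cells. The UMIs of library 1 lay in 10.5% of its 19 cells, and those of library 2 in 43.1% of 295 cells. Tenocyte-like cells held slightly more in library 2, at 855 CPM (792 to 921), from 31.5% of 92 cells. In all other named classes Mfap4 stayed under 15 CPM. Of the osteoblast-like cells of library 2, 1.2% held all 35 of its UMIs.

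Mfap5 (chr6:122505845-122529290, plus strand), a second microfibril-associated glycoprotein, was measured at 2221 CPM (2038 to 2415) and 2774 CPM (2712 to 2836) in fibroblast-like cells. It was found in 94.7% and 92.5% of these cells, against 2.41% and 2.5% of Lepr+ stromal-like cells (median 6971 and 3517 UMIs) and 0.103% and 0.735% of blood cells. After each cell had been thinned to 1000 UMIs, 77.7% and 73.2% of fibroblast-like cells and 0.298% and 0.474% of Lepr+ stromal-like cells still had a UMI. Smooth muscle-like (434 CPM) and tenocyte-like (422 CPM) cells of library 2 followed, with intervals that overlapped (327 to 565 and 379 to 469.8).

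Fbln1 (chr15:85205949-85286535, plus strand), a fibulin found in elastic fibres and basement membranes, was measured at 81.5 CPM (49.8 to 126) and 209 CPM (193 to 227) in fibroblast-like cells. Lepr+ stromal-like cells held 100.4 CPM (76.8 to 129) and 178 CPM (128 to 243), so that the intervals of the 2 classes overlapped in each library. Tenocyte-like cells of library 2 held 102 CPM, osteoblast-like cells 12.04 and 29.1 CPM, and the smooth muscle-like cells no UMI.

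Fbln5 (chr12:101746565-101819055, minus strand), a fibulin needed for the assembly of elastic fibres, had its highest level in the Lepr+ stromal-like cells of library 1. It was measured there at 851 CPM (779 to 928) but at 147 CPM (101 to 207) in library 2. Fibroblast-like cells held 155 CPM (110 to 213) and 142 CPM (128 to 156). The 2 classes thus differed in library 1 and not beyond counting error in library 2, where the Lepr+ stromal-like cells also had the lower level of their own markers. Whether the makeup of that class set the level of Fbln5 was not tested.

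The stretches upstream of Fbln1 and Fbln5 are shown because these fibulins were the members at like levels in fibroblast-like and Lepr+ stromal-like cells of library 2. Windows were given for 6 of the 10 genes, and these 2 windows of 250 bases, read from RefSeq on GRCm38.p6, overlap no annotated exon. Each ends at the base before a RefSeq transcription start and is written 5′ to 3′ on the strand of the gene, at chr15:85205699-85205948 (plus strand) and chr12:101819120-101819369 (minus strand). For each of the 2 genes, 2 windows with different starts were given, and 1 is shown. The RefSeq start used for Fbln5 lies outside the gene span given above. Capitals mark matches, on either strand, to 4 promoter motifs: the TATA box TATAAA, the CCAAT box CCAAT, the GC box GGGCGG, and the AP-1 motif TGANTCA.
Fbln1: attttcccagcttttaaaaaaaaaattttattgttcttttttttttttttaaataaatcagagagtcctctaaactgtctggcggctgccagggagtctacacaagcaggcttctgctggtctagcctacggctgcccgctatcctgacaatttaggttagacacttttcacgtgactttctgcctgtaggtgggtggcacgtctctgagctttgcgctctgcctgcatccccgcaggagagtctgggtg
Fbln5: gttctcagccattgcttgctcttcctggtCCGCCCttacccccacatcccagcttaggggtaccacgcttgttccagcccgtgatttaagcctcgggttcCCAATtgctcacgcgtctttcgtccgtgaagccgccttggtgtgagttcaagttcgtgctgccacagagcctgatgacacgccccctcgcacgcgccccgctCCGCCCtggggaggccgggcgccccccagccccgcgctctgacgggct
The Fbln1 window held a match to none of the 4 motifs. The Fbln5 window held 1 CCAAT match, 150 bases before the start, and 2 GC box matches, 221 and 48 bases before it, and no TATA or AP-1 match. Among 32851 windows of the same length, 12.4% held the TATA box, 33.8% the CCAAT box, 32.7% the GC box, and 6.75% the AP-1 motif.

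Fbln2 (chr6:91212455-91272540, plus strand) is a fibulin that binds elastin and fibrillin. Fibroblast-like cells held 546 CPM (457 to 647) and 424 CPM (400.5 to 449), with a UMI in 84.2% and 80.3% of cells. Tenocyte-like cells of library 2 held 131 CPM. The Lepr+ stromal-like cells held 0 and 1 UMIs, the osteoblast-like cells 3 and 8, and the chondrocyte-like cells 0 and 4. The smooth muscle-like cells held none, for which the exact Poisson interval reaches 29.1 CPM in the 126621 UMIs of library 2. Unlike Fbln1 and Fbln5, Fbln2 was thus low in Lepr+ stromal-like cells of both libraries.

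Tnxb (chr17:34670535-34719815, plus strand) encodes tenascin-X, a large matrix glycoprotein that binds collagen fibrils and is associated with elastic fibres. Fibroblast-like cells held 1386 CPM (1242 to 1541) and 661 CPM (632 to 692), with a UMI in 94.7% and 88.5% of cells. Tenocyte-like and smooth muscle-like cells of library 2 held 319.6 and 142 CPM. The Lepr+ stromal-like cells had 0 and 6 UMIs, the osteoblast-like cells 1 and 5, and the chondrocyte-like cells none in either library.

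The differences between classes were tested on UMI sums per library and class with edgeR's quasi-likelihood test, with P values adjusted over all 9502 genes by the Benjamini-Hochberg method. Compared with Lepr+ stromal-like cells, 5 of the 10 genes were higher in periosteal fibroblast-like cells, where 4.49% of all genes tested were higher. They were Eln, Mfap4, Mfap5, Fbln2, and Tnxb. Fbn2 was lower, where 3.99% of all genes were lower. The median log2 fold change was 4.53 for the 10 genes and 0.02 for all genes.

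Mfap5 differed most from Lepr+ stromal-like cells, with a log2 fold change of 9.64 (SE 1.25, adjusted P = 0.000707). Fbln2 followed with 8.66 (SE 1.05, adjusted P = 0.000791) and Eln with 8.29 (SE 1.044, adjusted P = 0.000922). Mfap4 (7.04, SE 1.70, adjusted P = 0.0256) and Tnxb (6.93, SE 1.10, adjusted P = 0.00499) also passed the threshold of 0.05, but with DESeq2 they did not (adjusted P = 0.235 and 0.208). Mfap4 also did not pass when a fibroblast cluster that held B cell markers was kept (adjusted P = 0.0548). These 5 genes include elastin itself and 4 proteins bound to the fibres.

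Within library 1, which had the Lepr+ stromal-like cells with the stronger marker levels, Tnxb was at least 281-fold, Fbln2 at least 111-fold, and Mfap4 at least 21.5-fold higher in fibroblast-like cells, with the floor for a class at 0 set at 3 UMIs per library. Within library 2, Eln was at least 35.1-fold higher and Tnxb was 24.7-fold higher (11.3 to 67.4). The direction of these genes was the same in both libraries.

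Fbn2 was lower in fibroblast-like than in Lepr+ stromal-like cells, with a log2 fold change of -3.15 (SE 0.82, adjusted P = 0.0354). The ratios of the 2 libraries were 0.0697 (0.00828 to 0.261) and 0.208 (0.0828 to 0.588). The call was lost at the coarser clustering resolution of 0.4 (adjusted P = 0.0942) and when the cluster with B cell markers was kept (adjusted P = 0.066).

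For Fbn1 (2.13, SE 0.84, adjusted P = 0.184), Mfap2 (1.05, SE 0.64, adjusted P = 0.436), Fbln1 (0.43, SE 0.63, adjusted P = 0.783), and Fbln5 (-1.50, SE 0.69, adjusted P = 0.257), the difference from Lepr+ stromal-like cells did not pass the test. Without the filter on low counts, Fbn1 passed (2.16, adjusted P = 0.0292), and 6 members were then higher. Fbn1 was at a higher level in both libraries, 4.81-fold (4.21 to 5.504) and 2.66-fold (2.15 to 3.34). For Fbln5 the ratio in library 1 was 0.182 (0.127 to 0.253), and that in library 2 was 0.962 (0.673 to 1.42).

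**Figure D2:**
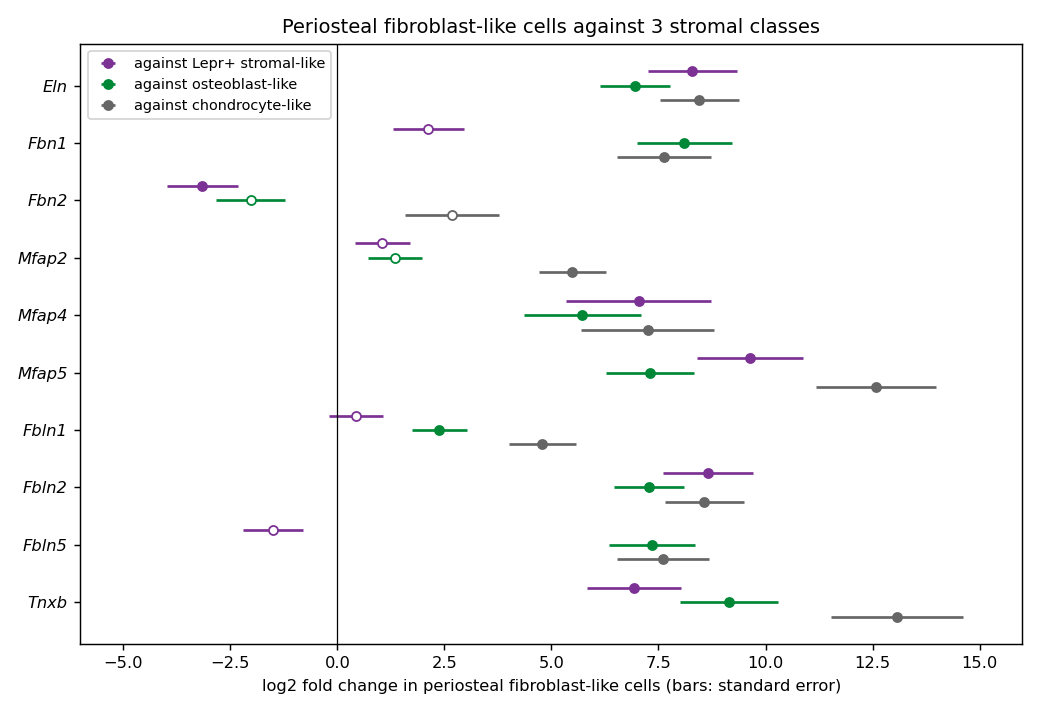
Log2 fold change of each gene in periosteal fibroblast-like cells against Lepr+ stromal-like (purple), osteoblast-like (green), and chondrocyte-like (gray) cells, from the sums of 2 libraries. Bars are standard errors derived from the test statistic, and filled points passed an adjusted P of 0.05. Fbn2 alone lies left of 0 in 2 of the comparisons, Mfap2 and Fbln1 lie near 0 against Lepr+ stromal-like cells, and the value of Tnxb against chondrocyte-like cells, which had no Tnxb UMI, depends on the model's prior count.

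Compared with osteoblast-like cells, 8 of the 10 genes were higher in periosteal fibroblast-like cells, where 11.5% of all genes were higher, and none was lower, where 7.52% were lower. The genes that did not pass were Fbn2 (log2 fold change -2.02, SE 0.80, adjusted P = 0.108) and Mfap2 (1.35, SE 0.64, adjusted P = 0.186). By DESeq2, Mfap4 did not pass (5.81, adjusted P = 0.166), which left 7 higher. DESeq2 also called no member lower, and at an unadjusted P under 0.05 the edgeR fit had 1 lower, Fbn2. The largest differences were those of Tnxb (9.15, SE 1.15, adjusted P = 0.000583) and Fbn1 (8.10, SE 1.12, adjusted P = 0.000734), and the smallest that passed was that of Fbln1 (2.38, SE 0.65, adjusted P = 0.02). Without integration of the libraries, the value of Fbln1 was -0.043 (adjusted P = 0.973). The median was 7.12 for the 10 genes and 0 for all genes.

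Compared with chondrocyte-like cells, 9 of the 10 genes were higher in periosteal fibroblast-like cells, where 13.6% of all genes were higher, and none was lower, by edgeR, by DESeq2, or at an unadjusted P under 0.05, where 10.3% of all genes were lower. Mfap5 had a log2 fold change of 12.6 (SE 1.403, adjusted P = 6.19e-05). Tnxb, without a UMI in chondrocyte-like cells, was at least 419.9-fold higher in library 1 and at least 809-fold higher in library 2. Fbn2 did not pass (2.68, SE 1.09, adjusted P = 0.1). With the library as a block in the model, Fbn2 did (2.90, SE 0.72, adjusted P = 0.0138), and all 10 genes were then higher, as they were without the filter on low counts (Fbn2 adjusted P = 0.0454). With DESeq2, Mfap4 missed the threshold (7.38, adjusted P = 0.0506), and 8 were higher. The median was 7.62 for the 10 genes, with or without Tnxb set at its lower bound, and -0.01 for all genes.

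Tenocyte-like and smooth muscle-like cells could not be tested, because library 1 held fewer than 10 of each. In library 2, 8 members were at a higher level in fibroblast-like than in tenocyte-like cells with intervals above 1. Fbn2 (ratio 0.174, 0.0916 to 0.323) and Mfap4 (0.882, 0.809 to 0.963) were lower. Against the 2 tenocyte-like cells of library 1, 4 members had intervals above 1. Mfap2 (0.383) and Mfap4 (0.0442) had intervals below 1 there. Against the smooth muscle-like cells of library 2, 8 members were higher with intervals above 1, and Eln was lower (ratio 0.480, 0.399 to 0.581). Against the 4 smooth muscle-like cells of library 1, 5 members had intervals above 1 and Fbn2 had an interval below 1. How many of all genes had such intervals was not counted in either library.

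A list of 19 other genes of elastic fibre assembly was taken up for comparison, and all but Adamtsl2 were tested. In periosteal fibroblast-like cells, 5 of 18 were higher and 2 lower than in Lepr+ stromal-like cells, where 4.49% and 3.99% of all genes were. Against osteoblast-like cells, 9 were higher and 3 lower, where 11.5% and 7.52% of all genes were. Against chondrocyte-like cells, 8 were higher and 3 lower, where 13.6% and 10.3% of all genes were. Their median log2 fold changes were 0.53, 1.81, and 1.56. Against each of the 3 classes, Ltbp4, Emilin2, Hmcn1, and Adamtsl4 were higher and Emilin1 was lower.

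Ltbp4, a binding protein of latent TGF-β that also guides elastin assembly, was measured at 648 and 802 CPM in fibroblast-like cells, 0 and 26.8 CPM in Lepr+ stromal-like cells, 0.831 and 8.46 CPM in osteoblast-like cells, and 0 and 0.273 CPM in chondrocyte-like cells. Its log2 fold change against Lepr+ stromal-like cells was 6.52 (SE 1.16, adjusted P = 0.00396). Emilin1, a glycoprotein at the surface of elastic fibres, was measured at 61.1 and 47.2 CPM in fibroblast-like cells, 145 and 214 CPM in Lepr+ stromal-like cells, 103 and 76.5 CPM in osteoblast-like cells, and 194 and 116 CPM in chondrocyte-like cells. Its log2 fold changes in the 3 comparisons lay between -1.995 and -1.30. Among these 4 classes, fibroblast-like cells thus had the highest level of Ltbp4 and the lowest of Emilin1 in both libraries.

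Emilin2 (253 and 84.7 CPM), Hmcn1 (102 and 44.0 CPM), and Adamtsl4 (97.8 and 79.3 CPM), which encodes a protein that binds fibrillin, were present in fibroblast-like cells of both libraries and stayed under 20 CPM in each library of the other 3 classes. Adamtsl4 had no UMI in chondrocyte-like cells and was at least 29.6-fold and 96.9-fold higher than there. Ltbp1, a binding protein of latent TGF-β, was measured at 171 and 115 CPM in fibroblast-like cells, and passed the test against osteoblast-like and chondrocyte-like cells. So did Efemp1, the gene of fibulin-3, at 175 and 96.5 CPM. Fbln7, the gene of another fibulin, was measured at 24.5 and 130.05 CPM in fibroblast-like cells and at 139 and 128 CPM in chondrocyte-like cells, and was higher than in the other 2 classes. Loxl4, at 0 and 1.8 CPM in fibroblast-like cells, was lower than in osteoblast-like (34.1 and 23.4 CPM) and chondrocyte-like cells (19.8 and 46.6 CPM).

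Lox, the lysyl oxidase that crosslinks elastin and collagen, was lower in fibroblast-like cells (134.5 and 83.2 CPM) than in osteoblast-like cells (905 and 500.4 CPM), with a log2 fold change of -3.29 (SE 0.66, adjusted P = 0.00589). Loxl1, a lysyl oxidase that acts on elastin, was measured at 399 and 385 CPM in fibroblast-like cells and at 2.08 and 10.2 CPM in osteoblast-like cells, and was higher by 5.41 (SE 0.70, adjusted P = 0.000275). Against Lepr+ stromal-like cells, Thsd4, which encodes a protein that binds microfibrils, was lower by -5.86 (SE 1.03, adjusted P = 0.00571), from 0 and 3 UMIs in fibroblast-like cells and 74 and 7 in Lepr+ stromal-like cells. The enzymes and binding partners thus did not follow a single direction.

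The periosteal fibroblast-like cells came from 2 clusters. Cluster 1 (15 and 168 cells) was led by Ccl2, Pi16, and Ly6a beside the members Mfap5 and Fbn1. Cluster 5 (4 and 127 cells) was led by Apod, Cygb, and Entpd2 beside the members Mfap4 and Eln. Pi16 was at 161 and 1212 CPM in cluster 1 and at 367 and 325 CPM in cluster 5, so that its order differed between the libraries. The values of these clusters are a description without a test, since their cells were divided by expression and library 1 held 4 cells of cluster 5. Fbn1 was measured at 3100.2 and 1379 CPM in cluster 1 and at 733 and 365 CPM in cluster 5. Mfap4 had the reverse order, with 0 and 165 CPM in cluster 1 and 561 and 1781 CPM in cluster 5. In cluster 5 of library 1, all 26 Mfap4 UMIs and all 19 Mfap2 UMIs lay in the same 2 cells. Of the 22 Eln UMIs there, 18 lay in 1 cell.

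Fbn1, Mfap5, and Tnxb were at higher levels in cluster 1 than in cluster 5 in both libraries, with ratios of 4.23 and 3.77 for Fbn1, 1.395 and 2.35 for Mfap5, and 2.03 and 1.89 for Tnxb. Eln, Mfap2, Mfap4, and Fbln1 were at lower levels in cluster 1. The ratios were 0.212 and 0.264 for Eln, 0.405 and 0.536 for Mfap2, and 0.191 and 0.230 for Fbln1. The intervals of all 7 genes excluded 1 in both libraries, but the number of all genes with such intervals between these clusters was not counted. Fbln2 had opposite directions in the libraries (0.510 and 1.30), and Fbn2 and Fbln5 had intervals that included 1. The members' total was 0.791% and 0.718% of UMIs in cluster 1 and 0.595% and 0.661% in cluster 5, so that it was higher in cluster 1 of both libraries.

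**Figure D3:**
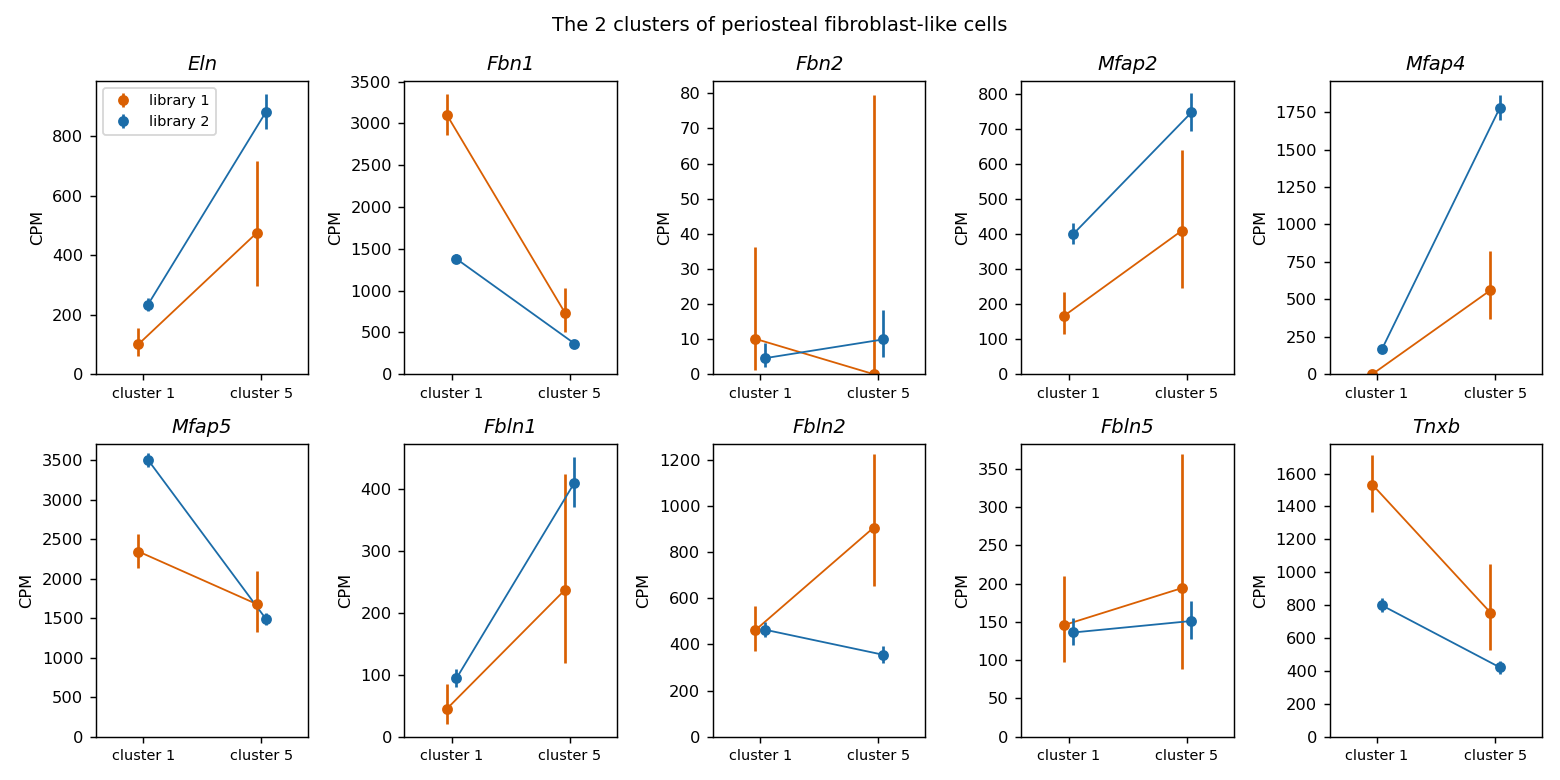
Levels (CPM, linear axes from 0) of the 10 genes in clusters 1 and 5 of periosteal fibroblast-like cells, with 1 line per library (orange, library 1; blue, library 2) and 95% exact Poisson intervals. The lines of Fbn1, Mfap5, and Tnxb fall and those of Eln, Mfap2, Mfap4, and Fbln1 rise from cluster 1 to cluster 5 in both libraries.

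Markers of other cell types differed between these clusters. The summed level of the 4 synovial lining markers Prg4, Clic5, Tspan15, and Cd55 was 4392 and 9447 CPM in cluster 1 and 194 and 118 CPM in cluster 5. The 8 erythroid markers, mostly hemoglobin genes, were at 8944 CPM in cluster 5 of library 2 and at 884 to 1146 CPM in the other 3 groups. Their part in the members' levels was not tested.

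Across the 295 fibroblast-like cells of library 2, Spearman correlations of the 45 pairs of members lay between -0.302 (Fbln1 and Tnxb) and 0.639 (Fbn1 and Mfap5), with a median of 0.0917. Mfap4 correlated with Fbln1 (0.524), Eln (0.4998), and Mfap2 (0.435). Mfap5 correlated with Fbln2 (0.484), and Fbn1 with Tnxb (0.459). These are descriptions of cells that share 1 library and differ in depth. The pairs of Mfap4 named here join members that were all at higher levels in cluster 5. In library 2, Fbn1, Mfap5, Fbln2, and Tnxb were all at higher levels in cluster 1. The pair of Fbln1 and Tnxb joins a member higher in cluster 5 with a member higher in cluster 1.

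Among the fibroblast-like cells, those with at least 1 UMI of Pi16, a secreted protein that marks a population of fibroblasts in many tissues, were compared with those without. There were 8 cells with Pi16 and 11 without in library 1, and 119 and 176 in library 2, and the median UMIs per cell were 11906 and 12900 in library 1 against 9243 and 9161 in library 2. A Pi16 UMI was thus found in 42.1% and 40.3% of fibroblast-like cells, and in 12.5% and 4.69% of blood cells. The level in blood cells was 13.3 and 7.79 CPM, against 199.7 and 888 CPM in fibroblast-like cells.

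The 10 genes together made up 1.07% of UMIs in the cells with Pi16 of each library, and 0.576% and 0.450% in the cells without Pi16. No member passed the test of this difference. By edgeR's quasi-likelihood test adjusted over 9750 genes, 0 members were higher, where 0.0103% of all genes were higher, and 0 were lower, where 0.0103% were lower. DESeq2 also called 0, and at an unadjusted P under 0.05 there was 1, Eln. The 2 genes called of all 9750 were Pi16, which divided the cells, and Clic5, a marker of synovial lining (log2 fold change -5.49, SE 0.81, adjusted P = 0.0313). With the library as a block, 5 genes were called, and again no member.

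Eln had the largest log2 fold change among the members. It was measured at 331 CPM with Pi16 and 82.4 CPM without in library 1 and at 860.5 and 209.9 CPM in library 2. The ratios were 4.02 (2.03 to 8.43) and 4.10 (3.62 to 4.65). The log2 fold change was 2.00 (SE 0.65, unadjusted P = 0.00776, adjusted P = 1 by edgeR). Without integration of the libraries, Eln passed the test (2.51, adjusted P = 0.0486). In library 1, 18 of the 29 Eln UMIs with Pi16 lay in 1 cell of cluster 5. Within cluster 1 of library 1, the ratio of Eln was 2.65 (0.998 to 7.23), an interval that included 1.

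Fbn1 was measured at 3974 CPM with Pi16 and 1920 CPM without in library 1, and at 1727 and 532 CPM in library 2, or 2.07-fold (1.77 to 2.42) and 3.25-fold (2.996 to 3.52). Mfap5 was 1.90-fold (1.60 to 2.26) and 2.79-fold (2.66 to 2.93) higher in level, and Fbln2 2.59-fold (1.81 to 3.72) and 2.05-fold (1.82 to 2.30). In library 1, the ratios within cluster 1 were 2.58 (2.15 to 3.12) for Mfap5 and 4.06 (2.60 to 6.45) for Fbln2. Within cluster 5 of library 1 (2 cells with Pi16 and 2 without), they were 0.437 (0.262 to 0.713) and 0.723 (0.372 to 1.39). For Mfap2 the ratios over both clusters were 1.95 (1.09 to 3.50) in library 1 and 1.39 (1.26 to 1.55) in library 2. In library 1, 19 of the 27 Mfap2 UMIs with Pi16 lay in 2 cells of cluster 5. Within cluster 1 of that library, the ratio of Mfap2 was 0.694 (0.270 to 1.59). Mfap4, with 26 and 0 UMIs in library 1, was at least 15.6-fold higher there and 2.17-fold (1.98 to 2.37) higher in library 2. All 26 UMIs lay in 2 cells of cluster 5, and the cells of cluster 1 in library 1 held no Mfap4 UMI, with or without Pi16. The counting intervals of these 6 genes lay above 1 in both libraries, whereas the test above, which sets them against the spread between libraries, called none of them. How many of all genes had such intervals was not counted.

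Fbln5 differed in direction, with a ratio of 0.273 (0.0832 to 0.704) in library 1 and 1.56 (1.27 to 1.91) in library 2. Tnxb (1.23, 0.984 to 1.54, and 1.32, 1.202 to 1.45) and Fbln1 (1.47, 0.540 to 3.91, and 1.79, 1.52 to 2.12) had intervals above 1 in library 2 only. Fbn2 had 0 and 2 UMIs in library 1 and 7 and 11 in library 2. These 4 genes thus showed no difference beyond counting error in both libraries that had the same direction.

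**Figure D4:**
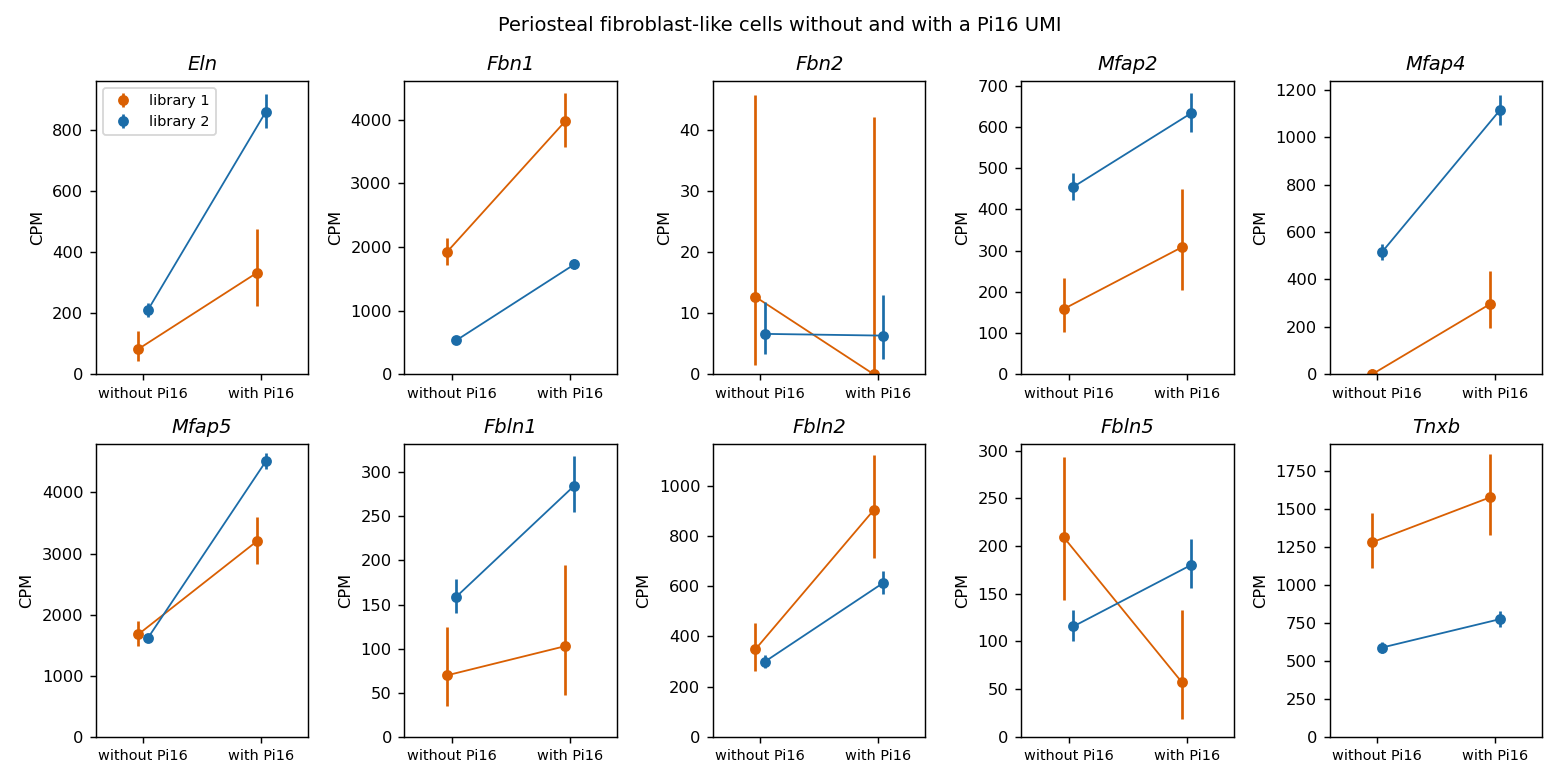
Levels (CPM, linear axes from 0) of the 10 genes in fibroblast-like cells without and with a Pi16 UMI, with 1 line per library (orange, library 1; blue, library 2) and 95% exact Poisson intervals. The lines of 8 genes rise in both libraries, that of Fbln5 falls in library 1 and rises in library 2, and no member passed the test over libraries.

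Within cluster 5 of library 2 (43 cells with Pi16 and 84 without), Eln was measured at 1750.1 and 410.0 CPM, a ratio of 4.27 (3.69 to 4.94), and Tnxb at 337 and 468 CPM, a ratio of 0.719 (0.577 to 0.891). Within cluster 1 of the same library (76 and 92 cells), the ratios were 5.48 (4.28 to 7.07) for Eln and 1.48 (1.33 to 1.64) for Tnxb. The difference in Eln was thus present in both clusters, and that of Tnxb changed direction.

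Lining markers were at lower levels in the cells with Pi16. The summed level of the 4 markers was 982 CPM in cells with Pi16 and 5050 CPM in cells without in library 1, and 690.0 and 9604 CPM in library 2. Erythroid markers stood at 1153 and 1064 CPM in library 1 and at 201 and 6362 CPM in library 2. The cells with more than 10000 CPM of either list, 2 in library 1 and 15 in library 2, all lacked Pi16. Without these cells, the ratios of Eln were 3.09 (1.56 to 6.48) and 3.73 (3.29 to 4.24), those of Fbn1 were 1.61 and 2.86, those of Mfap5 were 1.48 and 2.56, and those of Tnxb were 0.966 (0.772 to 1.21) and 1.24 (1.13 to 1.36). No member was called without these cells either.

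Over the 10 sums of 5 classes and 2 libraries, the genes whose level followed each member most closely were searched for among 9492 others. The Pearson correlations of log2(CPM + 10) with the first 3 genes lay between 0.9498 (Akap17b with Fbn2) and 0.999 (Gpnmb with Eln). Eln was followed by Gpnmb, Map6, and Pi16, Mfap4 by genes that include Hmcn2 and Pi16, and Mfap5 by Clec3b, Myoc, and Col14a1. Fbln2 was followed by Col14a1, Dpt, and Ccn3, and Tnxb by Axl, Tek, and Tmod2. Clec3b, Col14a1, and Dpt are also in the list that named the fibroblast-like cells. For Fbn1 the genes were Aoc3, Lamc1, and Ifi204, for Fbln1 they include Nsmce1 and Plat, and for Mfap2 they were Cyba, Ifitm3, and Mxra8. Fbln5 was followed by Chst7, Fst, and Igfbp3, and Fbn2 by Ikzf2, Fzd5, and Akap17b. These sums share libraries and depth, so the values describe them only. Among these classes, Eln and Pi16 were both nearly confined to fibroblast-like cells. Any 2 genes confined to 1 class correlate highly over such sums, so the values show no link particular to a pair.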

How the data were processed

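Single cells of 2 periosteal libraries (10x Genomics, 3′ v3.1 chemistry) were analysed. The authors counted UMIs per gene and barcode with Cell Ranger 6.1.2 on mm10, per the submitters' processing notes, and deposited raw counts, one matrix per library, without normalization or pooling. The study's methods name a human genome only. Gene positions are those of GENCODE M21 (GRCm38).

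Cells were filtered as in the study's methods, and canonical correlation analysis (Seurat 5.3.0, R 4.3.3) served to integrate the libraries (3000 variable genes, 30 anchor dimensions, 15 principal components), with clusters called at resolution 0.8. After removal of hematopoietic clusters, the procedure was repeated. Each cluster was named for the class of which the highest share of markers was detected, with 3 as the minimum (log2 fold of at least 1, UMIs in at least 20% of cells), and stayed unnamed if another class had more markers among its 10 leading genes. Clusters with 2 or more blood markers among the 10 leading genes were set aside as mixed. These naming rules were set after clusters had been seen. The members and the gene lists were chosen with earlier results of these data known. Scrublet (scanpy 1.11.5) called 1.98% and 0.0346% of cells as doublets, so that it had not worked in library 2. Doublets were kept, and their removal was an alternative.

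Since cells are not replicates, the UMIs of each class were added up within a library. The sums of the 5 classes that had 10 or more cells in both libraries were analysed in 1 edgeR 4.0.16 fit (filterByExpr, TMM, glmQLFit, glmQLFTest) with Benjamini-Hochberg adjustment over all genes. The standard errors (SE) given are the absolute log2 fold change divided by the square root of the test's F statistic. They are not estimated by the fit itself. In the comparison by Pi16, the group with Pi16 held 8 cells in library 1, and the minimum was applied to the undivided class. The script was tested on simulated data. Sums of 1 library share that library: their deviations correlated in each of 10 pairs of classes (r = 0.0939 to 0.413, median 0.163), and a block for the library was an alternative. Others were DESeq2 1.42.0, other filters and resolutions, no integration, and each library alone. The genes named are the 10 members, the partner genes that passed in most of the 3 class comparisons or, for Lox and Thsd4, chosen after their values were seen, Pi16, and the 3 genes most alike to each member, of which 2 are not reported here.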

Additional observations from a re-analysis of the deposited data

Results flagged for a closer look

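Reporter transcripts, which enter no comparison above, had more UMIs than the floor of 3 set above for a count of 0. EGFP had 6837 UMIs in the kept cells of library 2 and 0 in those of library 1. The tdTomato feature had 1482 UMIs in library 1 and 4627 in library 2, although the mice are labelled WT. The summed levels of tdTomato in blood cells were 13.6 and 34.5 CPM, against 12.2 and 528 CPM in periosteal fibroblast-like cells.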

How the results depend on the processing

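With 2 libraries, leaving out either leaves no test. Of the 23 calls of members between classes, all 46 values from a single library kept the sign. The calls were made from the same 2 libraries, so this agreement is no separate support for them. Among 526 tested values of single members under the other alternatives, 513 kept direction and side of the threshold. Of the rest, 7 lost the call, 5 gained it, and 1 reversed, Fbln1 against osteoblast-like cells without integration (-0.043). Members higher than in Lepr+ stromal-like cells numbered 3 with DESeq2, against 5. Members lower numbered 0, against 1, at resolution 0.4 and with the fibroblast cluster with blood markers kept, where 526 genes were called, against 806. Over the alternatives, all genes called in either direction numbered 526 to 1117 against Lepr+ stromal-like cells. They numbered 1415 to 2419 against osteoblast-like and 1890 to 2892 against chondrocyte-like cells. The shares of all genes given above for these classes are those of the main fit only. Without the filter on low counts, 1 member, Fbn2, was lower than in osteoblast-like cells. Without integration, 1 member, Eln, was higher with Pi16. Genes called by Pi16, against 2, numbered 16 without integration, 15 without the filter, 6 with DESeq2, 5 with the replicate block of library, 1 without Scrublet doublets, without the top 5% of Scrublet scores, with the blood-marker cluster kept, or without the cells rich in lining or erythroid markers, and 0 at resolution 0.4, without skeletal muscle-like sums, with cells thinned to 5000 UMIs, or with fibroblast-like sums alone. The causes were not tested. Apart from Fbn2 against chondrocyte-like cells and this count, the block changed no call of a member or count by over 1.5 times. The removal of the top 5% of scores, the kept cluster, the left-out muscle sums, and the left-out marker-rich cells were chosen after seeing the data.

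A comparison with osteogenic progenitor-like cells was planned and could not be made, because no cluster took that name. In the 3 alternatives that gave such a class, 6 of 9 (no integration), 6 of 10 (Scrublet doublets removed), and 5 of 10 members (top 5% removed) were higher in fibroblast-like cells, where 5.77%, 5.95%, and 4.53% of all genes were, and 0 were lower. In the same 3 alternatives, library 2 held fewer than 10 Lepr+ stromal-like cells, and the comparison with that class was not run. The 19 fibroblast-like cells of library 1 limit what can be seen of single members there.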

Other observations

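Clusters that entered no comparison held the 10 genes at widely differing levels. In a cluster that carried both fibroblast and B cell markers (9 and 33 cells), the members made up 0.249% and 0.328% of UMIs, with Mfap5 at 588 and 1623 CPM and Fbn1 at 949.6 and 742 CPM. In a cluster of cycling cells (19 and 49 cells), the share was 0.0315% and 0.0435%, and all 79 Mfap5 UMIs of library 2 lay in 2.04% of its 49 cells. This cluster held 85406 and 53116 CPM of the osteoblast markers, and Fbn1 at 62.2 and 72.8 CPM. A cluster of library 2 led by Msmp, Cytl1, and Prg4 (75 cells) held 0.0223%, with no Mfap5 UMI, Mfap2 at 94.1 CPM, and Fbn1 at 64.0 CPM. A cluster with neutrophil markers (43 and 47 cells) held 0.0314% and 0.0125%. The shares were 0.00308% and 0.00318% in a cluster led by Col10a1 (67 and 74 cells). They were 0.00052% and 0.00141% in a cluster led by Tcim (17 and 47 cells).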
